A study of Mus musculus with 2 samples.

Results

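The periportal spots described here were the 10% of spots in each liver section with the largest share of their RNA from Sds, Hal and Gls2, genes of amino acid breakdown in hepatocytes near the portal tract. They numbered 214 of 2140 spots in the AEG-1DMAC section and 254 of 2540 in the AEG-1fl/fl section, or 468 of 4680 together. The sections were assayed by spatial transcriptomics (Visium), in which probes against the mouse transcriptome are captured on spots under fixed, paraffin-embedded tissue and counted as unique molecular identifiers (UMIs). Each spot covers a small patch of tissue that usually contains more than 1 cell and cell type. AEG-1DMAC mice carry floxed AEG-1 (gene Mtdh) deleted in myeloid cells by Cre recombinase driven from the lysozyme M locus, and AEG-1fl/fl mice carry the floxed gene without Cre. Each genotype was 1 section from 1 mouse of 27 weeks, so spots within a section are not replicates and no difference between genotypes could be tested. The labels put both mice on a high fat/high sugar diet (HF/HSD) from week 7 for 20 weeks, whereas the study describes this assay on mice given control diet, and the diet of these sections is unsettled.

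Blood enters the liver lobule at the portal tract and leaves at the central vein, and hepatocytes divide their work along this path. Periportal hepatocytes (zone 1) are known for amino acid breakdown, urea synthesis and gluconeogenesis, which oxygen and glucagon favour. Pericentral hepatocytes (zone 3), which lie next to a source of Wnt ligands, are known for glutamine synthesis, drug metabolism and bile acid synthesis. Sds (serine dehydratase) converts serine to pyruvate, Hal (histidine ammonia-lyase) opens histidine breakdown and Gls2 (liver glutaminase) releases ammonia from glutamine for the urea cycle.

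The sequences below are the 250 bases before the start of 4 genes, 1 of the score, 1 named below as high and 2 as low in these spots, shown because Wnt signalling acts through TCF/LEF factors and glucagon through CREB. They are from RefSeq on GRCm38.p6, 5′ to 3′ on the strand of the gene. Capitals mark a TCF/LEF motif (CTTTGAT, read on either strand) in Hal, Slc1a2 and Lect2 and a cAMP response element (TNACGTCA, either strand) in Pck1. Hal is a score gene at chr10:93488518-93488767 on the plus strand, Pck1 encodes the first committed enzyme of gluconeogenesis at chr2:173152823-173153072 on the plus strand, Slc1a2 encodes a glutamate transporter at chr2:102706188-102706437 on the plus strand, and Lect2 encodes a secreted hepatocyte protein at chr13:56548539-56548788 on the minus strand.
Hal: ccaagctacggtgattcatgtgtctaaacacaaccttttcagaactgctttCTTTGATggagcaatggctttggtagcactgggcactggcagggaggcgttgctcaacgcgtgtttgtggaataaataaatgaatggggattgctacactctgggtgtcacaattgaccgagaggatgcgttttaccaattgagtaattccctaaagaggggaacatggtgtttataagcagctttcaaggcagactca
Pck1: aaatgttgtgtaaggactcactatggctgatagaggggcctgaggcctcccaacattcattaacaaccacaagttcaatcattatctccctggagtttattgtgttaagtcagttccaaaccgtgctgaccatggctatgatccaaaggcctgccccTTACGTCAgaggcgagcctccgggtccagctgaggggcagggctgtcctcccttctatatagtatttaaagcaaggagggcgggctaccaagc
Slc1a2: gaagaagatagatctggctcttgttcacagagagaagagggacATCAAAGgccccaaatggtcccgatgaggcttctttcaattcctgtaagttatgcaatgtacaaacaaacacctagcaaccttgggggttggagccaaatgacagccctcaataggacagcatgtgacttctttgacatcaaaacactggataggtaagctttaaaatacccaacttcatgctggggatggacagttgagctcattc
Lect2: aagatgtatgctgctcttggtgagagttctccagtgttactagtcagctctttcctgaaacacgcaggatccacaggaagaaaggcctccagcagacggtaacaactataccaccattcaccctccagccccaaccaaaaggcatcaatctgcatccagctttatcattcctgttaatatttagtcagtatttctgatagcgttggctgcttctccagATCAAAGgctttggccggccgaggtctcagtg
Of 32851 promoters of this length, 3.21% hold the TCF/LEF letters and 2.52% the cAMP response element. Among the genes highest in periportal spots that are named below, 1 of 13 promoters (11 genes), that of Pck1, held the cAMP response element and 0 held the TCF/LEF motif. Of the 12 named genes lowest there, only 8 had a promoter among these, 1 each. In that group 3 of 8 promoters held the TCF/LEF motif (Cyp2c29, Lect2 and Slc1a2) and 0 held the cAMP response element. The TCF/LEF letters also stood before Hal, a gene that was high in these spots. In all 6 motifs were searched, not all of which are given here, and a match describes letters in this window and not binding.

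The score that chose the spots is the summed UMIs of Sds, Hal and Gls2 as a percent of a spot's UMIs. Members ran from 0.0976% to 0.210% with a median of 0.112% in AEG-1DMAC, and from 0.101% to 0.222% with a median of 0.114% in AEG-1fl/fl. The median of the remaining spots was 0.0440% and 0.0542%. At the threshold the classes met without a gap, since the last AEG-1DMAC member held 4 Sds, 7 Hal and 10 Gls2 UMIs of 21516 and the first spot outside held 6, 11 and 10 of 27676. In AEG-1fl/fl the last member held 1, 6 and 11 UMIs of 17843, against 5, 6 and 14 of 24832 just outside. The score therefore rested on few molecules, with a median of 24 score UMIs per AEG-1DMAC member (range 3 to 54) and 21 per AEG-1fl/fl member (range 5 to 56).

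The 3 score genes are described here only as what was selected. Summed over spots and scaled to a common total of counts (CPM), Sds stood at 205 in periportal and 70.9 in remaining spots of AEG-1DMAC, and at 151 and 61.2 in AEG-1fl/fl. Hal stood at 392 and 149 CPM in AEG-1DMAC and at 403 and 186 in AEG-1fl/fl. Gls2 stood at 563 and 242 CPM, and at 629 and 308. On the log2 scale the selected contrast was thus wider in AEG-1DMAC for each gene, at 1.53, 1.40 and 1.22 against 1.30, 1.11 and 1.03 in AEG-1fl/fl. Over whole sections, Sds was higher in AEG-1DMAC by 0.27 (log2 ratio of CPM, 95% interval 0.20 to 0.34), while Hal was at -0.26 (-0.30 to -0.21) and Gls2 at -0.31 (-0.34 to -0.27). These intervals, like those of all ratios and differences of ratios below, cover counting error alone and not the spread between mice or sections.

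The score genes varied together across spots. When spots were chosen by Hal and Gls2 alone, 85.0% and 84.3% of the members were the same, and Sds, which had no part in that choice, was at 170 CPM in the chosen and 74.8 in the remaining AEG-1DMAC spots and at 120 and 64.5 in AEG-1fl/fl. Hal, with spots chosen by Sds and Gls2, stood at 315 against 157 CPM and at 319 against 195. Gls2, with spots chosen by Sds and Hal, stood at 466 against 253 CPM and at 479 against 324, and 72.4% and 60.2% of members were kept. Each gene thus remained higher when it did not choose the spots, by 0.56 to 1.19 on the log2 scale. Across all kept spots of a library, which share depth and section, Pearson's r between shares of UMIs of any 2 score genes was 0.40 to 0.52 in AEG-1DMAC and 0.30 to 0.42 in AEG-1fl/fl, and among members alone it lay between -0.34 and -0.17, where the selection on their sum lowers it.

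Periportal spots were of similar depth to the rest of the section. Median UMIs per spot were 20490.5 in members and 20997.5 in remaining spots of AEG-1DMAC, and 16755 and 18530.5 in AEG-1fl/fl, and the pools held 4483126 and 4760482 member UMIs. The libraries share 1782 barcodes, 18 of them members in both, but in this assay a barcode marks a position on the array and not a cell. Mtdh, which the deletion removes from myeloid cells only, was at 61.1 CPM in periportal and 66.9 CPM in remaining AEG-1DMAC spots, and at 50.2 and 61.3 CPM in AEG-1fl/fl, so whole spots did not show the deletion.

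Marker sets that had no part in the score were used to check the label, although they were read from the same spots. 0 of the 214 and 0 of the 254 members were among the 10% of spots richest in Slc1a2 and Oat, the pericentral genes. The exact 95% intervals of these shares reached up to 1.71% and 1.44%. Intervals of shares in this paragraph take each spot as independent. Spots of 1 section are not replicates, so these intervals may be too narrow. Of the members, 45 in AEG-1DMAC (21.0%, exact 95% interval 15.8% to 27.1%) and 42 in AEG-1fl/fl (16.5%, 12.2% to 21.7%) were among the 10% richest in cholangiocyte markers. Overlap with the 10% of spots richest in hepcidin RNA (Hamp and Hamp2), which with Igfbp2 are the study's midlobular (zone 2) markers, was 8 spots in AEG-1DMAC (3.74%, 1.63% to 7.23%) and 46 in AEG-1fl/fl (18.1%, 13.6% to 23.4%). In AEG-1DMAC the periportal spots thus shared fewer spots with the hepcidin-rich set, a difference between 2 sections that could not be tested. On these sets the label held against the pericentral end in both sections. In AEG-1fl/fl the members were not set apart from the hepcidin-rich spots, since Hamp and Hamp2 together stood at 406 CPM in members and 330 CPM in remaining spots.

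Besides the score genes, Aldh1b1, Hsd17b6, Gldc and Cdh1 led the genes higher in periportal spots of both sections, and Slc1a2, Oat, Cyp2e1 and Cyp2c29 led those lower there. Among 6938 genes averaging 10 CPM or more, 25 (0.360%) exceeded the remaining spots 1.5-fold or more in both sections with the interval on that side, and 72 (1.04%) lay 1.5-fold or more below them. Counted in each section by itself, 72 were higher and 132 lower in AEG-1DMAC, and 43 and 109 in AEG-1fl/fl. No gene passed that fold in opposite directions. The spots were chosen from these same counts, so the numbers describe the chosen spots and are not a test.

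Aldh1b1, a mitochondrial aldehyde dehydrogenase, stood at 124 CPM in periportal and 47.7 CPM in remaining AEG-1DMAC spots, and at 203 and 93.7 CPM in AEG-1fl/fl. Its log2 ratio was 1.38 (95% interval 1.24 to 1.51) and 1.11 (1.01 to 1.22), the widest among the 12 genes selected for naming. Hsd17b6, an enzyme of steroid and retinol metabolism, had 283 and 134 CPM in AEG-1DMAC and 264 and 148 CPM in AEG-1fl/fl, for ratios of 1.08 and 0.83. Gldc, of the glycine cleavage system, had 96.8 and 52.6 CPM in AEG-1DMAC and 104 and 61.9 CPM in AEG-1fl/fl, and Cdh1, the epithelial adhesion protein E-cadherin, 79.4 and 37.3 CPM and 73.1 and 44.4 CPM. In each case both sections showed the same side, and the AEG-1DMAC ratio was the wider one.

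Cyp2f2, a periportal cytochrome P450 and a zone 1 marker of the study, was at 4074 CPM in periportal and 2303 CPM in remaining AEG-1DMAC spots, and at 3159 and 2075 CPM in AEG-1fl/fl. Pck1 was at 3248 and 1923 CPM in AEG-1DMAC and at 1759 and 1141 CPM in AEG-1fl/fl, with log2 ratios of 0.76 (0.73 to 0.78) and 0.62 (0.59 to 0.66). Among single spots, 99.1% of AEG-1DMAC and 96.1% of AEG-1fl/fl members lay above the median of the remaining spots for Cyp2f2, and 97.2% and 91.7% for Pck1. Hardly any member was therefore poor in these genes, although only 56.5% and 43.7% exceeded the 90th percentile of the remaining spots for Cyp2f2. Slc3a1, a subunit of the cystine and dibasic amino acid transporter, had 67.8 and 30.7 CPM in AEG-1DMAC and 137 and 90.2 CPM in AEG-1fl/fl. Etnppl, which degrades phosphoethanolamine, had 277 and 157 CPM and 402 and 255 CPM. Ugt2b38, a glucuronosyltransferase with close copies between which probes may be shared, had 70.3 and 32.6 CPM and 68.7 and 43.5 CPM. Got1 (aspartate aminotransferase), Abhd2 (a lipid hydrolase) and Uroc1 (urocanase, the step after Hal) were also among the 12, with ratios of 0.60 and 0.56, 0.70 and 0.56, and 0.64 and 0.49, which in AEG-1fl/fl were under the 1.5-fold limit.

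On the low side, Slc1a2, whose promoter is printed above, was at 25.2 CPM in periportal and 139 CPM in remaining AEG-1DMAC spots, and at 15.8 and 62.6 CPM in AEG-1fl/fl. Its log2 ratios were -2.46 (-2.74 to -2.19) and -1.99 (-2.34 to -1.66), the lowest of the 12 genes selected for naming on this side. Oat, the ornithine aminotransferase of zone 3, was at 156 and 683 CPM in AEG-1DMAC and at 110 and 368 CPM in AEG-1fl/fl. Cyp2e1, the ethanol-oxidising cytochrome P450, was at 2168 and 7821 CPM and at 950 and 3038 CPM. Only 1.40% and 3.15% of members exceeded the median of the remaining spots in Cyp2e1, and none exceeded their 90th percentile. The other genes were Cyp2c29 (ratios -1.98 and -1.63), Lect2 (-2.11 and -1.62), the fatty aldehyde dehydrogenase Aldh3a2 (-1.96 and -1.62), the caffeine-oxidising Cyp1a2 (-1.75 and -1.55), Rgn and Gulo of ascorbate synthesis (-1.67 and -1.50, and -1.87 and -1.48), Cyp2c54 (-1.59 and -1.46), the fatty acid hydroxylase Cyp4a14 (-1.28 and -1.46) and Nr1i3, the xenobiotic receptor CAR (-1.13 and -1.24). All 12 were past the fold in both sections, and probes of the Cyp2c genes may be shared between close copies.

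**Figure D1:**
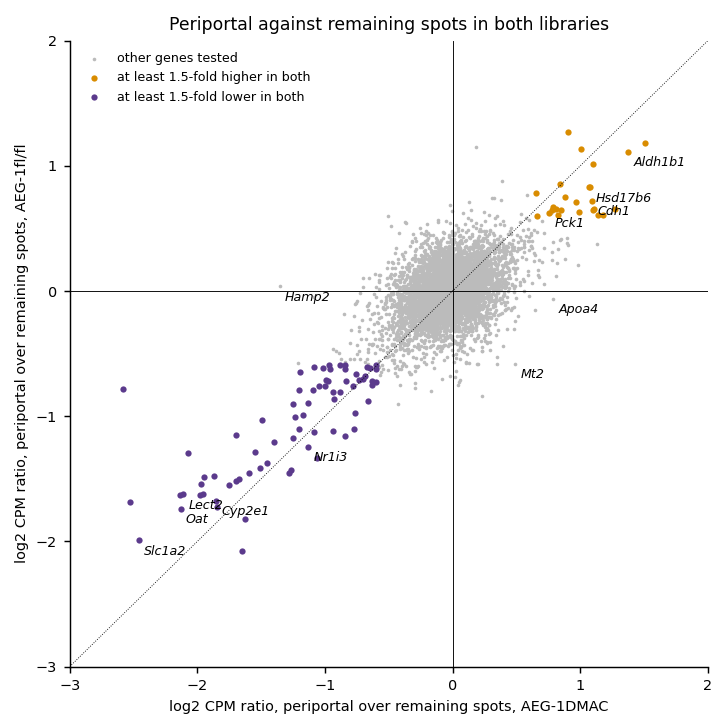
Each point is 1 of 6938 genes; the x axis is the log2 ratio of CPM, periportal over remaining spots, in AEG-1DMAC and the y axis the same ratio in AEG-1fl/fl, with the 25 genes past the 1.5-fold limit upward in orange and the 72 downward in purple (score genes left out). The downward arm is longer than the upward one and reaches a ratio of -2.46 and -1.99 for Slc1a2, while Hamp2, Apoa4 and Mt2 lie off the dotted line of equal ratios.

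Over all 6938 genes the ratios of the 2 sections correlated with a Pearson's r of 0.58, taken across genes, which do not vary independently, and the median ratio was -0.03 and 0.00. In 748 genes both intervals lay on the same side of 0 and in 28 they lay on opposite sides. The plot of ratios in both sections shows this agreement along the diagonal. Levels changed stepwise with the score and not only at the threshold. In 10 equal classes of spots by score, Cyp2f2 fell from 4074 CPM in the periportal class to 819 CPM in the lowest class of AEG-1DMAC and from 3159 to 955 CPM in AEG-1fl/fl. Cyp2e1 ran the other way, from 2168 to 14104 CPM and from 950 to 6522 CPM.

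**Figure D2:**
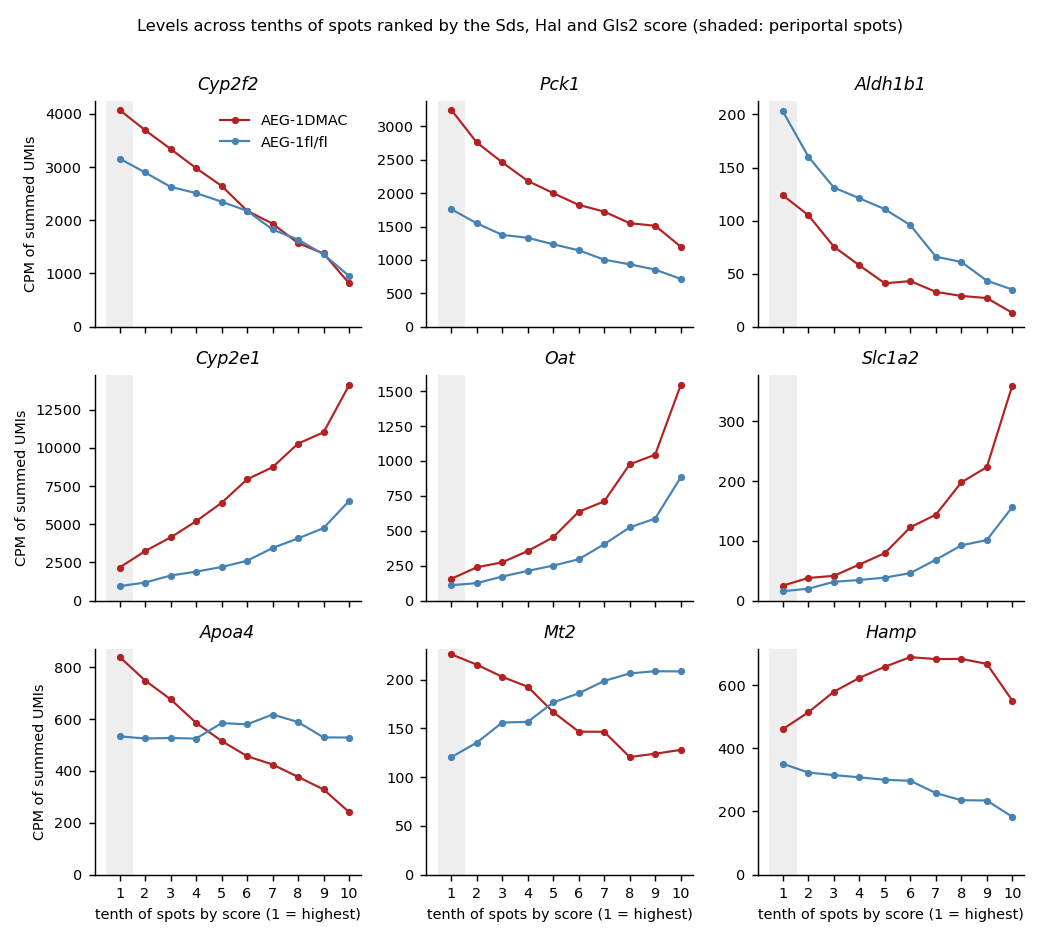
CPM of summed UMIs (y axis, from 0) in 10 equal classes of spots ranked by score (x axis, class 1 being the periportal spots, shaded) for 9 genes, in red for AEG-1DMAC and in blue for AEG-1fl/fl. Cyp2f2, Pck1 and Aldh1b1 are highest and Cyp2e1, Oat and Slc1a2 lowest in the periportal class of both sections, whereas Apoa4, Mt2 and Hamp run differently in the 2 sections.

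Lists of genes were set beside the median over all genes (-0.03 and 0.00). Of the study's zone 1 markers outside the score (Pck1, Cyp2f2, Hsd17b13 and Arg1), 2 of 4 passed the 1.5-fold limit upward and all 4 were higher in both sections, with medians of 0.77 in AEG-1DMAC and 0.50 in AEG-1fl/fl. Hsd17b13, a lipid droplet protein, was at 690 and 399 CPM in AEG-1DMAC and 759 and 577 CPM in AEG-1fl/fl, and Arg1, arginase of the urea cycle, at 2142 and 1602 CPM and 1790 and 1428 CPM. Of the 3 zone 2 markers (Hamp, Hamp2 and Igfbp2) 0 passed, with medians of -0.45 and 0.04. The 3 zone 3 markers (Cyp2e1, Cyp1a2 and Oat) all passed downward, with medians of -1.85 and -1.68. Of 8 measured zone 1 landmark genes 3 passed upward (medians 0.69 and 0.42), and of 6 measured zone 3 landmarks all 6 passed downward (-1.76 and -1.55). These 6 included Cyp7a1, the rate-limiting enzyme of bile acid synthesis, at 31.2 and 98.2 CPM in AEG-1DMAC and 12.4 and 52.4 CPM in AEG-1fl/fl, and Tbx3, a Wnt-responsive transcription factor, with ratios of -1.51 and -1.41. The Wnt targets Axin2, Lgr5 and Rhbg were under 10 CPM on average, with 16, 2 and 14 UMIs in AEG-1DMAC members and 7, 2 and 4 in AEG-1fl/fl members.

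The pathways usually assigned to zone 1 were higher by less than the fold. In amino acid breakdown 2 of 27 genes passed upward and 0 downward, with medians of 0.19 and 0.24, and 15 were higher and 8 lower in both sections. The 2 were Gldc and Sdsl, a relative of Sds, which stood at 34.1 and 15.9 CPM in AEG-1DMAC and 51.5 and 25.4 CPM in AEG-1fl/fl. The enzymes that follow Hal in histidine breakdown were uniformly higher, Amdhd1 (imidazolonepropionase) at 516 and 335 CPM and 504 and 381 CPM and Ftcd, which passes the formimino group to folate, at 498 and 350 CPM and 464 and 340 CPM. Of the 8 genes lower in both sections, Prodh (proline oxidation) was at -0.46 and -0.29 and Hpd (tyrosine breakdown) at -0.39 and -0.14. Amino acid breakdown was thus not uniformly higher, since Sdsl, Gldc and the histidine genes stood well above 0 while Prodh and Hpd stood below it.

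In the urea cycle 0 of 7 measured genes passed (medians 0.21 and 0.26). Cps1, the entry enzyme carbamoyl phosphate synthetase, was at 4558 and 3946 CPM in AEG-1DMAC and 4137 and 3464 CPM in AEG-1fl/fl, and Asl (argininosuccinate lyase) at 0.44 and 0.38 on the log2 scale. In gluconeogenesis Pck1 was the 1 gene of 9 to pass and 8 of 9 were higher in both sections, with Fbp1 (fructose bisphosphatase) at 0.48 and 0.35 and G6pc (glucose-6-phosphatase) at 0.29 and 0.38. Among glucagon and cAMP response genes 1 of 8 passed, again Pck1, whose promoter holds the cAMP response element printed above. In glutamine and ammonia handling 1 of 6 passed, Slc1a2, and downward. In the marker and landmark lists given above, which leave out the score genes, medians lay further from 0 at the central end than at the portal end.

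In drug metabolism 4 of 8 genes passed downward (medians -0.74 and -0.52), namely Cyp1a2, Cyp2c29, Gstm3 (a glutathione transferase) and Por, the reductase that serves the cytochromes P450. Aox3, an aldehyde oxidase, was on the other side at 0.44 and 0.16. In bile acid synthesis and export 1 of 10 passed downward, Cyp7a1, and the medians were only -0.15 and -0.12. None passed in fatty acid oxidation (14 genes, medians -0.07 and -0.10, 9 lower in both), apolipoproteins (10 genes, -0.02 and -0.06), the respiratory chain (11 genes, 0.06 and 0.07), acute phase proteins (8 genes, 0.13 and 0.11) or clock genes (7 genes, 0.33 and 0.34). In glycolysis and lipogenesis (12 genes) and cholesterol synthesis (15 genes) none passed either, and the medians stood apart between sections, at 0.20 and -0.02 and at 0.11 and -0.12.

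**Figure D3:**
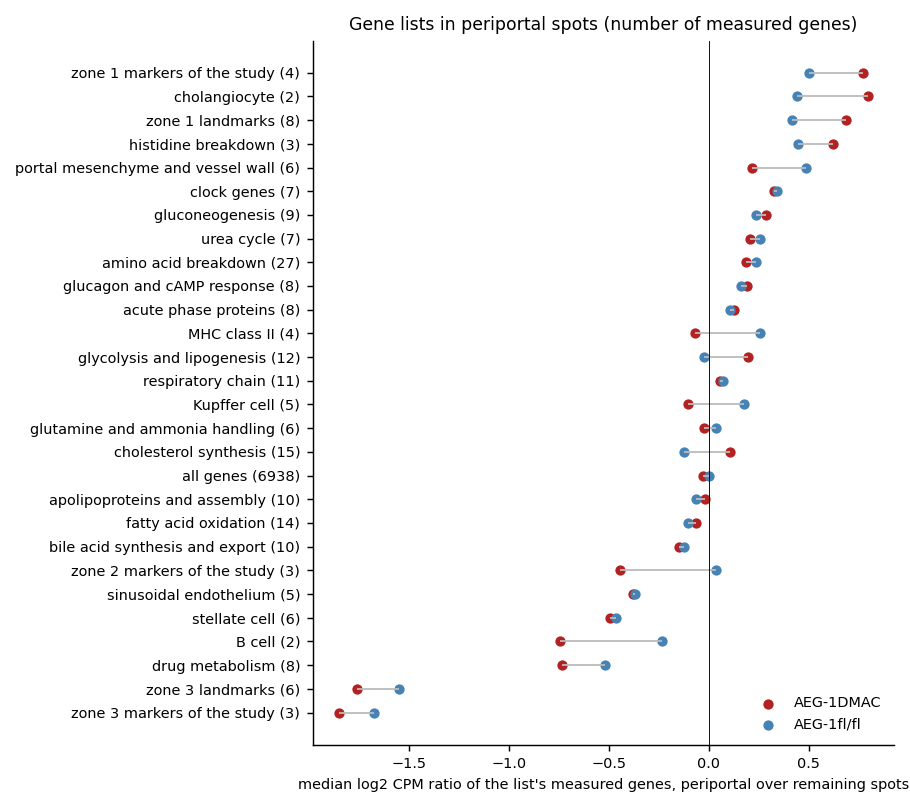
Median log2 ratio of CPM, periportal over remaining spots, of the measured genes of each list (x axis), in red for AEG-1DMAC and in blue for AEG-1fl/fl, with the number of measured genes in brackets. Zone 1 lists lie on the right and zone 3 lists far on the left, at -1.85 and -1.68 for the study's zone 3 markers, while most metabolic lists lie near the line for all genes at -0.03 and 0.00.

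Markers of other cells also moved with the periportal spots, and fewer cells of a type cannot be told apart from less RNA per cell in this assay. Summed cholangiocyte markers (Krt7, Krt19, Epcam, Spp1 and Sox9) were at 164 CPM in periportal and 78.9 CPM in remaining AEG-1DMAC spots and at 114 and 85.5 CPM in AEG-1fl/fl. Most of this sum was Spp1 (osteopontin), and the keratins Krt7 and Krt19 had 15 and 14 UMIs in AEG-1DMAC members and 11 and 6 in AEG-1fl/fl members. Portal mesenchyme and vessel wall markers summed to 199 and 171 CPM and to 195 and 161 CPM, with 0 of 6 measured genes past the fold. Sinusoidal endothelium markers were lower in all 5 genes (medians -0.38 and -0.37, sums 337 and 435 CPM and 330 and 430 CPM), and 2 of 6 stellate cell markers passed downward (medians -0.49 and -0.47). Of the central vein endothelium only Rspo3, which amplifies Wnt signals, was measured above 10 CPM, and it passed downward at -1.63 and -1.82. The 1 measured gene of portal and arterial endothelium was at -0.29 and -0.77. The 3 genes listed for it did not move that way as a sum, at 23.4 and 23.6 CPM in AEG-1DMAC and 25.2 and 22.3 CPM in AEG-1fl/fl. The 2 measured B cell genes had medians of -0.74 and -0.23, and no T cell or neutrophil marker reached 10 CPM. The part of these cells in the hepatocyte ratios was not tested, except that leaving out the 45 and 42 spots rich in cholangiocyte markers left 24 genes higher, 22 of them the same, and 82 lower, 68 of them the same.

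Periportal spots also differed among themselves. With each spot thinned to 8000 UMIs (212 and 246 spots deep enough), the ratio of variance to mean of a gene over spots was 1.04 and 1.03 at the median of 787 genes, close to the value of 1 that counting alone gives. Genes are called uneven here by this ratio, which at an equal relative spread grows with the mean of the gene. Haemoglobin Hbb-bs was the most uneven gene by it, at 13.6 and 14.4, and Hba-a2 reached 6.07 and 4.93, both from families of near-identical copies. Albumin (Alb) reached 7.08 and 10.7, and the urinary proteins Mup20 and Mup3 8.73 and 9.35 and 3.03 and 2.79. The antitrypsin gene Serpina1e reached 6.84 and 3.70, and Apoa1 2.76 and 4.35. Alb averaged 883 UMIs per thinned spot in AEG-1DMAC and 1171 in AEG-1fl/fl, against 4.17 and 6.55 for Hbb-bs. These ratios therefore do not rank relative spread. Cyp2e1 remained uneven inside the periportal class, at 8.63 and 4.21, with a 10th to 90th percentile range over single spots of 655 to 4063 CPM in AEG-1DMAC and 223 to 1918 CPM in AEG-1fl/fl. Cd74, the invariant chain of antigen-presenting cells, was at 3.79 and 2.74 and the actin-binding Tmsb4x at 3.14 and 2.62. The score genes were at 0.85 to 1.13, a range that the selection on their sum narrows and from which nothing is read.

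**Figure D4:**
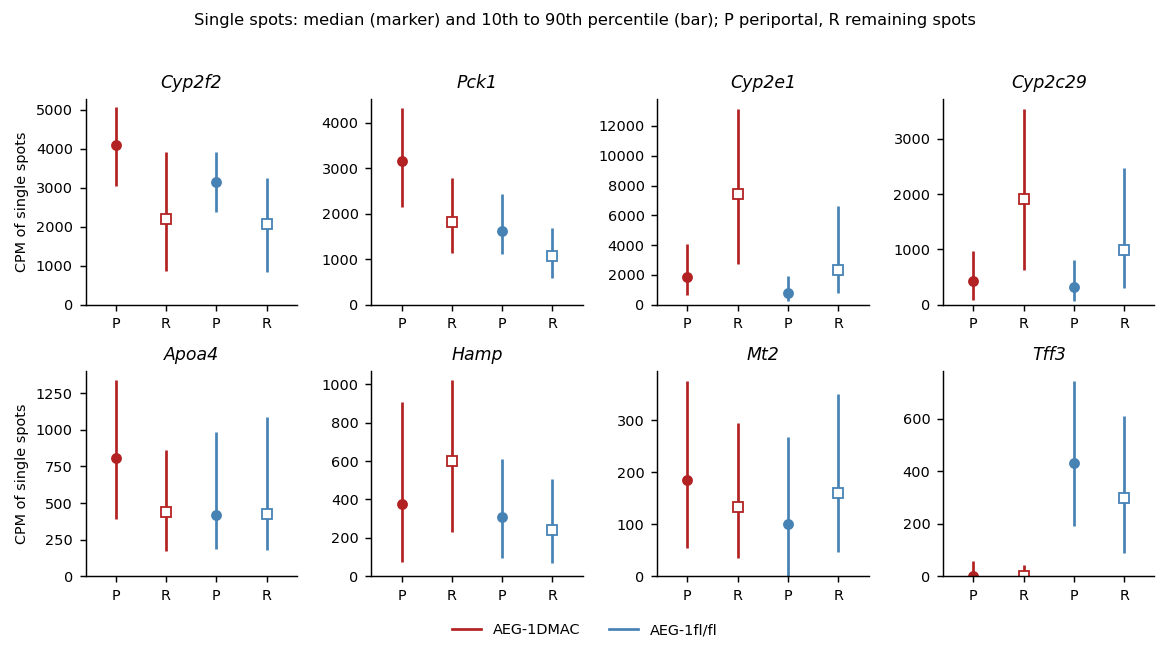
CPM of single spots (y axis, from 0) for 8 genes, with the median as a marker and the 10th to 90th percentile as a bar, for periportal (P) and remaining (R) spots of AEG-1DMAC in red and AEG-1fl/fl in blue. The periportal and remaining ranges overlap in every panel, the medians of Cyp2f2 and Pck1 are higher and those of Cyp2e1 and Cyp2c29 lower in periportal spots of both sections, and Tff3 differs mainly between sections.

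Between the periportal spots of the 2 genotypes, genes averaging 50 CPM or more in them were ranked. Gadd45g, Cish and Alas1 were furthest apart upward in AEG-1DMAC. Tff3, Depp1 and Lpl were among the furthest downward, and all of these genes differed in the same direction elsewhere in the section. Among 6950 genes averaging 10 CPM or more, 83 (1.19%) were higher in AEG-1DMAC periportal spots by 2-fold or more with the interval on that side, and 36 (0.518%) were lower by as much. All 119 lay on the same side in the remaining spots and 85 were at least 2-fold apart there too, 60 higher and 25 lower. Of the calls 69.7% were higher in AEG-1DMAC, and the median of all ratios was 0.12. With TMM factors, which bring that median to 0.01, the share was 57.7%, with median-of-ratios factors 58.2% and with the 50 most abundant genes left out of the total 57.6%. Genotype cannot be told apart from mouse, section or capture area here.

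Gadd45g, a growth arrest and stress gene, was at 226 CPM in AEG-1DMAC and 7.77 CPM in AEG-1fl/fl periportal spots, a log2 ratio of 4.86 (95% interval 4.39 to 5.37), against 4.41 in the remaining spots. Cish, which damps cytokine and growth hormone signals, was at 106 and 5.25 CPM (4.34), and Alas1, the first enzyme of heme synthesis, at 344 and 19.1 CPM (4.17). The transcription factors Onecut1 and Foxq1 were at 136 and 9.87 CPM (3.78) and at 173 and 17.9 CPM (3.27). Phlda1 (3.02), the adipokine gene Serpina12 (2.50), the urinary protein gene Mup12 (2.47, near-identical copies), the phosphatase gene Dusp1 (2.40) and Arid5b (2.37) made up the 10 named on this side. Gadd45g was at 208 and 9.77 CPM in the remaining spots, close to its periportal levels. Within AEG-1DMAC, Serpina12 (164 CPM in periportal and 87.2 CPM in remaining spots) and Foxq1 (173 and 111 CPM) were also higher in the periportal spots.

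Tff3, a secreted trefoil peptide, was at 16.5 CPM in AEG-1DMAC and 460 CPM in AEG-1fl/fl periportal spots, a ratio of -4.80 (-5.15 to -4.47). Tff3 was higher in periportal than in remaining spots of both sections, the latter having 8.86 and 344 CPM. Its log2 ratios were 0.90 in AEG-1DMAC and 0.42 in AEG-1fl/fl, where it was under the 1.5-fold limit. Depp1, a target of FoxO factors, was at 17.2 and 108 CPM (-2.65), and Lpl, which releases fatty acids from lipoproteins, at 31.9 and 141 CPM (-2.15). The other named genes were the ephrin Efna1 (-1.79), the fatty acid-binding Fabp5 (-1.78), the stearoyl-CoA desaturase Scd1 (-1.63), the immediate-early Egr1 (-1.37), the choline kinase Chka (-1.33) and the arrestin-like Arrdc3 (-1.14). Of these, Scd1 was slightly lower in periportal than in remaining spots, at 702 and 788 CPM in AEG-1DMAC and 2166 and 2425 CPM in AEG-1fl/fl. Its log2 ratios of periportal over remaining spots were -0.17 and -0.16.

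**Figure D5:**
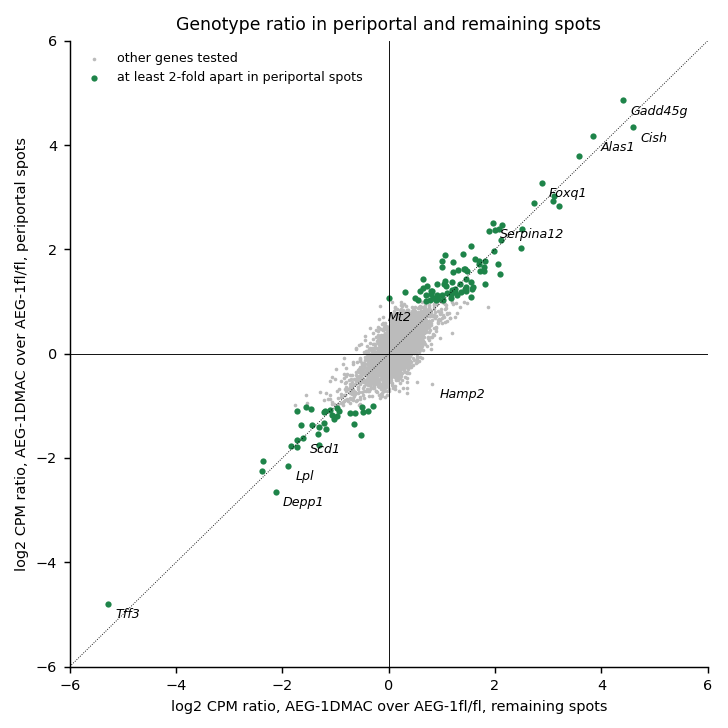
Each point is 1 of 6950 genes; the axes are the log2 ratio of CPM, AEG-1DMAC over AEG-1fl/fl, in remaining spots (x) and in periportal spots (y), and the 119 genes at least 2-fold apart in periportal spots are green. The green points follow the dotted line of equal ratios from Tff3 at -4.80 to Gadd45g at 4.86, and Hamp2 lies below it.

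Among lists, 3 of 7 measured clock genes were at least 2-fold higher and 1 lower in AEG-1DMAC periportal spots, with a median of 1.0 in periportal and 1.30 in remaining spots. Dbp, an output gene of the clock, was at 27.9 and 3.78 CPM and Arntl, a core activator, at 21.4 and 54.4 CPM. The 4 genes of MHC class II had a median of 0.83 (1.19 in remaining spots) with none past the fold. In glycolysis and lipogenesis Pklr (pyruvate kinase) and Thrsp (a lipogenic regulator) passed upward at 1.14 and 1.76 and Scd1 downward, and Acly (ATP citrate lyase) was at -0.38. Marco, a scavenger receptor of Kupffer cells, passed downward with 17.0 and 56.9 CPM, while the other 4 Kupffer cell markers did not pass (Clec4f 181 and 209 CPM, Cd5l 261 and 269 CPM). Amino acid breakdown, the urea cycle and gluconeogenesis had no gene past the 2-fold limit, with medians of 0.03, 0.14 and 0.27 in the periportal spots, beside 0.12 over all genes.

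A smaller set of genes was called for a genotype ratio that differed between periportal and remaining spots. Of 6938 genes, 51 (0.735%) had a ratio that was higher in periportal spots by 1.5-fold or more and 75 (1.08%) one that was lower by as much, with the interval on that side and at least 10 UMIs in each pool. Most rested on low counts, since at a mean of at least 50 CPM 4 and 2 remained. Intervals were set gene by gene, without allowance for the number of genes, so counting error alone could give part of these calls. The size of that part was not tested. With spots chosen without Gls2 14 of the 51 and 31 of the 75 were called again, and with the top 20% of spots 14 and 8. They stand beside the score genes, whose selected contrast was also wider in AEG-1DMAC, as given above, and the part of that in these differences was not tested. The study's zone 1 markers (4 of 4 above 0, median 0.17) and zone 1 landmarks (7 of 8, median 0.18) leaned the same way, beside a median of -0.03 over all genes.

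Mt2, a metallothionein that binds zinc and copper, was at 226 CPM in periportal and 161 CPM in remaining AEG-1DMAC spots, but at 120 and 180 CPM in AEG-1fl/fl. The genotype ratio was thus 0.91 in periportal and -0.16 in remaining spots, a difference of 1.07 (95% interval 0.92 to 1.23). Its neighbour Mt1 had 260 and 222 CPM in AEG-1DMAC and 217 and 304 CPM in AEG-1fl/fl, a difference of 0.71 (0.59 to 0.84), which fell under the 1.5-fold limit with the top 5% of spots (0.50), without Sds (0.56) and without Gls2 (0.55) in the score. Both metallothioneins were thus higher in the periportal spots of AEG-1DMAC and lower in those of AEG-1fl/fl. Over the 10 score classes Mt2 went from 226 to 128 CPM in AEG-1DMAC and from 120 to 208 CPM in AEG-1fl/fl.

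Apoa4, an apolipoprotein counted among zone 1 landmarks, had 841 and 488 CPM in AEG-1DMAC but 534 and 557 CPM in AEG-1fl/fl, a difference of 0.85 (0.77 to 0.92). Over single spots 83.6% of AEG-1DMAC members and 48.0% of AEG-1fl/fl members lay above the median of their remaining spots. The gradient over score classes ran from 841 to 242 CPM in AEG-1DMAC and stayed between 525 and 618 CPM in AEG-1fl/fl. Spp1, the cholangiocyte marker above, had 132 and 60.0 CPM and 71.8 and 55.3 CPM, a difference of 0.76 that was 0.01 when spots rich in cholangiocyte markers were left out. Spp1 is itself among the markers that chose those spots, so the fall follows in part from that choice and nothing is read from it. The remaining named genes on this side were under the 1.5-fold limit, namely Thrsp (0.55), Sqle and Msmo1 of cholesterol synthesis (0.54 and 0.48), Serpina12 (0.54), Slc3a1 (0.54) and Tff3 (0.48). In cholesterol synthesis as a whole the difference was above 0 in 13 of 15 genes (median 0.26), beside 3024 of 6938 over all genes. Of the 15, 2 passed the fold, and 1 of them was Fdft1 (squalene synthase), with 59 and 56 UMIs in members, at 0.72 (0.17 to 1.28).

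Hepcidin RNA went the other way. Hamp2 had 37.0 CPM in periportal and 94.7 CPM in remaining AEG-1DMAC spots, and 55.3 and 53.9 CPM in AEG-1fl/fl, a difference of -1.39 (-1.68 to -1.10). Hamp, the iron-regulating hormone, had 461 and 628 CPM in AEG-1DMAC and 351 and 276 CPM in AEG-1fl/fl, a difference of -0.79 (-0.89 to -0.70). Probes of these near-identical genes may be shared. Igfbp2, the other zone 2 marker, which encodes a binding protein for insulin-like growth factors, was at 916 and 1008 CPM and at 885 and 1031 CPM, a difference of 0.08 (0.02 to 0.15) on the opposite side. Over score classes Hamp had its lowest level in the periportal class of AEG-1DMAC, at 461 CPM with up to 689 CPM in between and 551 CPM in the lowest class, and its highest, 351 CPM, in that class of AEG-1fl/fl. Below the 1.5-fold limit on this side were Mup17 (-0.57, near-identical copies), Cpox of heme synthesis (-0.55), the Kupffer cell receptor Vsig4 (-0.53), Depp1 (-0.52), Arrdc3 (-0.51), Hbb-bs (-0.49, but 0.11 without Hal in the score), Lect2 (-0.49) and Slc1a2 (-0.47). The difference was below 0 in all 5 Kupffer cell markers (median -0.29) and all 4 MHC class II genes (-0.33). Kupffer cell markers summed to 524 CPM in periportal and 565 CPM in remaining AEG-1DMAC spots and to 621 and 532 CPM in AEG-1fl/fl, and 1 of these 5 genes was above 0 without Sds in the score, as were 2 of the 4 MHC class II genes without Hal.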

How the data were processed

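Per the labels and the study's methods, probe libraries of 2 fixed liver sections were processed by the authors with Space Ranger 2.0.1 on mm10, and Seurat 4.3.0 is also in the submitters' processing notes. The deposited files hold raw counts of UMIs per gene (19465 listed) and spot, with no normalisation, in which probe binding affects the level of each gene, so levels were compared gene by gene. Spots with at most 50000 UMIs and 100 to 7000 genes were kept. In the smallest pool 10 CPM is 45 UMIs. Ratios were formed from counts summed over spots, with exact conditional binomial (Clopper-Pearson) 95% intervals, and a normal interval on the log scale for the difference of ratios. In ratios a count of 0 was taken to allow 3 counts. No p-value was computed, since each genotype had 1 library. Spot positions were not used.

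The score genes were left out of gene counts but kept in totals. The members and gene lists were chosen with earlier results of these data known. Genes named were, at a mean of at least 50 CPM, the 12 highest and lowest ratios by the smaller of both sections, the 10 highest and lowest genotype ratios and differences of ratios, the 10 most uneven genes, and members of lists; a few genes that fall under it are not reported. T cell, B cell, neutrophil and portal endothelium markers were also listed, of which 0, 2, 0 and 1 genes reached 10 CPM. Alternatives covered the share of spots, score, threshold, spot filter, cholangiocyte-rich spots, depth, pooling, scaling (TMM from edgeR 4.0.16, R 4.3.3), gene filter and fold. Python 3.11.15, numpy 2.4.6, scipy 1.17.1 and matplotlib 3.10.9 were used, and the ratio code was tested on simulated data.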

Additional observations from a re-analysis of the deposited data

Results flagged for a closer look

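In 5 named genes the pooled counts of periportal spots lay above those of the remaining spots in one section and below them in the other, each with its counting interval away from 0. The difference of log2 genotype ratios, periportal minus remaining spots, was 1.07 for Mt2, 0.85 for Apoa4, 0.71 for Mt1, -0.79 for Hamp and -0.49 for Hbb-bs, which turned to 0.11 when Hal was left out of the score. With 1 section per genotype these differences were not tested. Hbb-bs has near-identical copies and was the most uneven gene among the periportal spots. Its median over single spots was higher in periportal than in remaining spots of both sections. The medians were 265 and 176 CPM in AEG-1DMAC, opposite to the pooled counts there, and 449 and 409 CPM in AEG-1fl/fl.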

How the results depend on the processing

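The 6 gene counts (25 higher and 72 lower in periportal spots, 83 higher and 36 lower in AEG-1DMAC, 51 and 75 for the difference of genotype ratios) were recomputed under 17 alternatives, and 78 of the 102 values stayed within 1.5 times. A mean of at least 1 CPM gave 61, 118, 256, 178, 123 and 172, and at least 50 CPM gave 9, 30, 32, 12, 4 and 2. Another fold gave 4 and 33 (2-fold), 416 and 165 (1.5-fold), and 2 and 5 (2-fold). With the top 5% of spots, 145 genes were higher in AEG-1DMAC and the difference had 97 and 147; with the top 20% it had 23 and 17, and with the mean over spots 85 were higher. The CPM minimum and the fold change which genes can be called; for the others the cause was not tested. Of 64 values of named genes under 14 alternatives, 827 stayed, 68 moved and 1 changed sign, Hbb-bs at 0.11 without Hal in the score. Thinned to 4000 UMIs, 8 of the 10 most uneven genes were the same. Counts under 10 CPM limit Krt19, Lgr5 and Rhbg. No paired analysis was possible because each genotype has 1 library and no test was run.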
